A study of Mus musculus with 6 samples.

Results

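Expression of YAP, its paralog TAZ, TEAD transcription factors and 5 genes widely used as their targets was examined in basal epidermal cells of mouse embryos with and without an activating PI3K variant. The 10 genes are the cofactor genes Yap1 and Wwtr1 (which encodes TAZ), the partner genes Tead1, Tead3 and Tead4, and the targets Ctgf, Cyr61, Amotl2, F3 and Ajuba. They were taken by symbol from a table of 24354 genes, and all 10 were found there.

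RNA was sequenced from cells with high surface α6 integrin, sorted from the epidermis of C57BL6 mice at E18.5, shortly before birth. There were 3 wild-type (WT) libraries and 3 libraries homozygous for Pik3ca H1047R, a kinase-domain variant that raises the activity of the catalytic subunit of phosphoinositide 3-kinase. The labels name no treatment, and which cells carried the variant, and from when, was not given in the sources used here. Labels do not say whether libraries of a group are separate animals. P-values therefore reflect just the scatter among these libraries, which may be technical in part. Values are FPKM, that is, fragments scaled by transcript length and library size, so levels of different genes can be compared per length, and the number of reads behind them is unknown.

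YAP and TAZ are transcription cofactors without a DNA-binding domain of their own. In the Hippo pathway the kinases MST1 and MST2 activate LATS1 and LATS2, which phosphorylate YAP and TAZ and so keep them out of the nucleus or mark them for degradation. Unphosphorylated YAP and TAZ enter the nucleus, bind TEAD proteins at sites with the core GGAATG and raise transcription, and stiff matrix, spreading and actin tension favour this state. In skin, nuclear YAP is known from basal progenitors, where it promotes proliferation. The mRNA levels measured here say nothing of where the proteins were or whether they were phosphorylated.

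Mutant libraries held less mRNA of Wwtr1, Tead3, Tead4, Ctgf, Cyr61 and F3 and more of Ajuba, while Yap1, Tead1 and Amotl2 did not pass the test. Thus 6 of the 10 genes were lower and 1 was higher at an adjusted p under 0.05 (limma, Benjamini-Hochberg over 11385 genes whose mean reached 1 FPKM), against 22.8% of all tested genes lower and 23.2% higher. All 10 genes passed the filter on low values. Their median log2 fold change was -0.73, beside 0.01 for all tested genes. WT and mutant values did not overlap for 7 genes that were lower and 1 that was higher, where 26.9% of tested genes were apart in the lower, 29.1% in the higher and 56.0% in either direction. The genes were chosen with earlier results of these data known.

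**Figure D1:**
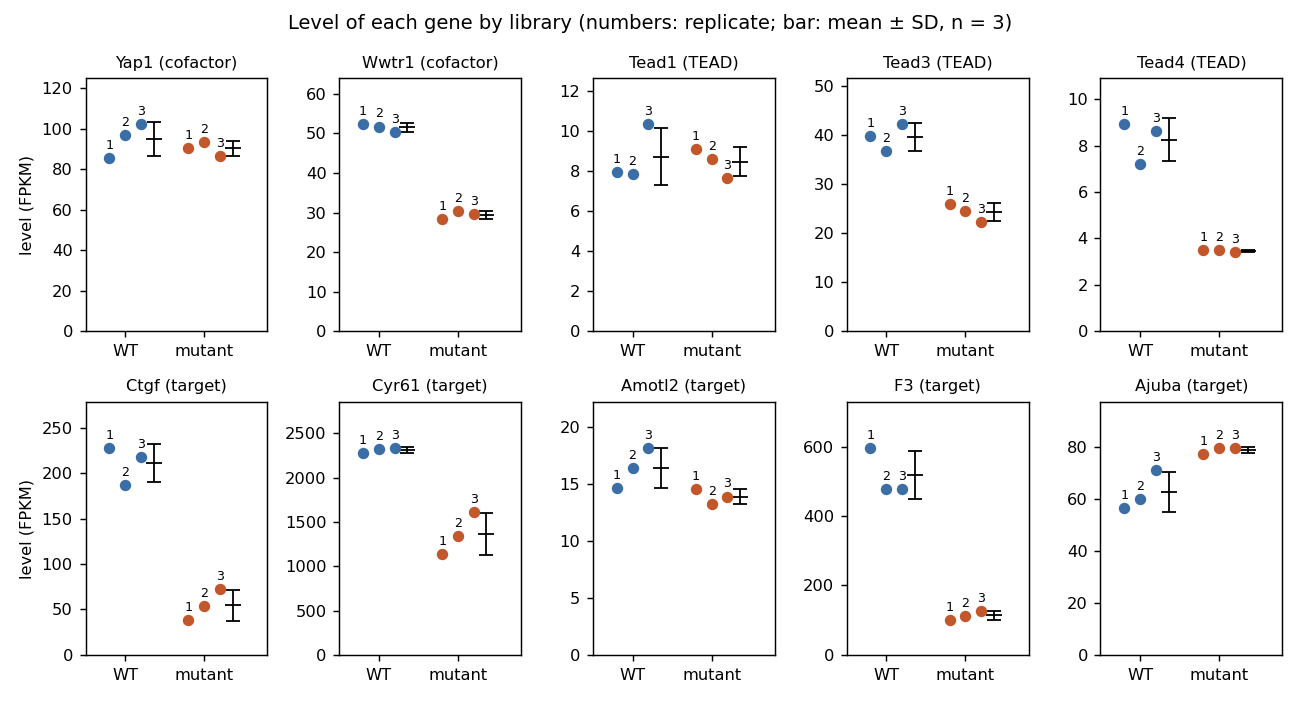
Level in FPKM of each of the 10 genes (vertical axes, linear from 0) in each library, with WT in blue, mutant in orange, the replicate number above each point, and the mean ± SD (n = 3) beside the points. The groups overlap for Yap1 and Tead1 and lie apart for the other 8 genes, of which Ajuba alone is higher in mutant libraries.

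The libraries held strong basal keratinocyte signal. The summed level of 8 basal markers was between 25920 and 26260 FPKM in WT and between 23770 and 27180 FPKM in mutant libraries, and most of it was keratin: Krt5 was at 12030 ± 154.5 and 11980 ± 918.7 FPKM (SD, n = 3). Of the 8, 4 were lower in mutant libraries and 1, Krt15, was higher, where 22.8% and 23.2% of all tested genes were. The lower ones were the hemidesmosome genes Itga6, which encodes the α6 integrin of the sort (0.751 of its WT mean), Itgb4 (0.591), Col17a1 (0.777) and Dst (0.496), named after their values were seen. Markers of suprabasal cells were also present and differed between the groups: 7 of them summed to between 3857 and 4657 FPKM in WT and to between 11730 and 14330 FPKM in mutant libraries, led by Krt10 (1704 and 5899 FPKM) and Krt1 (1489 and 5730 FPKM). Of the 7, 3 were higher (Krt10, Krt1 and Dsg1a) and 1 lower, where 23.2% and 22.8% of all tested genes were. The lower one was Lor, which fell from 76.57 to 31.6 FPKM (limma adjusted p = 0.0155), although its groups overlapped. Krtdap (log2 fold change 0.136), Sbsn (-0.158) and Ivl (-0.226) did not pass. The higher sum thus came mostly from Krt10 and Krt1 and was not shared by all 7 markers. Library totals lay between 656761 and 767148 FPKM in WT and between 538627 and 651769 FPKM in mutant libraries. Factors from the median of ratios lay between 0.993 and 1.02, so the deposited values were already close to matched on the median gene. The X-linked transcript Xist was at 30.5, 24.3 and 0.530 FPKM in the WT and at 0.733, 0.0542 and 71.1 FPKM in the mutant libraries.

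Of the cofactor genes, Wwtr1 fell and Yap1 did not pass the test. Yap1 (chromosome 9, 7932001 to 8004596, minus strand, protein coding) was at 85.7, 97.0 and 102.3 FPKM in the WT and at 90.5, 93.6 and 86.6 FPKM in the mutant libraries. The mutant values lay inside the range of the WT values. Its log2 fold change was -0.07 (SE 0.0783, 95% interval -0.25 to 0.11, limma adjusted p = 0.489). An exon of Yap1 overlaps one of the annotated transcript Gm20416 on the other strand, so its reads may be included: strandedness of the libraries was not given in the sources used here.

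Wwtr1 (chromosome 3, 57455644 to 57575910, minus strand) was at 52.4, 51.7 and 50.4 FPKM in the WT and at 28.4, 30.3 and 29.7 FPKM in the mutant libraries. Every mutant value lay under every WT value, and the coefficient of variation was 1.997% within the WT and 3.33% within the mutant group. By limma, Wwtr1 fell by 0.79 (log2; SE 0.0545, adjusted p = 3.19e-05), to 0.572 of its WT mean. The deposited intervals of WT and mutant libraries were apart in 0 of 9 pairs. Taken within each library, the level of Wwtr1 was 0.611, 0.533 and 0.492 of that of Yap1 in the WT and 0.313, 0.324 and 0.343 of it in the mutant libraries. On the log2(FPKM + 1) scale this ratio was lower in mutant libraries by 0.72, with no overlap of the groups (exact permutation test, two-sided, p = 0.1, the smallest that 3 against 3 allows). The summed level of both cofactor genes was 146.5 ± 7.56 FPKM in the WT group and 119.7 ± 3.88 FPKM in the mutant group (SD, n = 3).

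TEAD genes encode the DNA-binding partners of YAP and TAZ. Tead3 (chromosome 17, 28331673 to 28350805, minus strand) was at 39.8, 36.7 and 42.3 FPKM in the WT and at 25.98, 24.6 and 22.3 FPKM in the mutant libraries. It had the highest level of the TEAD genes in every library, and its groups did not overlap. By limma, Tead3 fell by 0.68 (log2; SE 0.0775, adjusted p = 0.000342), with deposited intervals apart in 0 of 9 pairs. The call ended after scaling libraries to the same total FPKM (log2 fold change -0.361, limma adjusted p = 0.0621).

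Tead4 (chromosome 6, 128227143 to 128300813, minus strand, shorter than the GENCODE gene) was at 8.93, 7.20 and 8.64 FPKM in the WT and at 3.51, 3.48 and 3.39 FPKM in the mutant libraries. The mutant values were nearly equal, and all lay under the WT values. By limma, Tead4 fell by 1.048 (log2; SE 0.086, adjusted p = 6.78e-05), which is 2.39-fold by the means, and its deposited intervals were apart in 6 of 9 pairs.

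Tead1 (chromosome 7, 112679320 to 112906805, plus strand) was at 7.95, 7.88 and 10.4 FPKM in the WT and at 9.10, 8.63 and 7.67 FPKM in the mutant libraries. The groups overlapped, with the lowest value in a mutant and the highest in a WT library. Its log2 fold change was -0.03 (SE 0.109, 95% interval -0.28 to 0.22, limma adjusted p = 0.83). Tead2, a family gene outside the 10, fell by 0.66 on the log2 scale, from 27.8 ± 1.36 to 17.2 ± 0.908 FPKM (SD, n = 3; limma adjusted p = 0.000168).

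The summed level of the 4 TEAD genes was 84.4 ± 3.48 FPKM in the WT group and 53.5 ± 2.23 FPKM in the mutant group (SD, n = 3). Tead3 held 46.9% ± 1.38 of that sum in WT and 45.4% ± 1.79 in mutant libraries, and the share of Tead2 was between 30% and 35.8% in WT and between 30.7% and 35.1% in mutant libraries. Both shares overlapped between the groups. The share of Tead1 was 9.35%, 9.77% and 11.8% in the WT and 16.3%, 16.3% and 14.9% in the mutant libraries, and that of Tead4 was 10.5%, 8.92% and 9.87% in the WT and 6.28%, 6.56% and 6.59% in the mutant libraries. Neither overlapped between groups. Against Tead1 in the same library, the log2 ratio of Tead3 was lower in mutant libraries by 0.65 and that of Tead4 by 1.02 (exact permutation test, two-sided, p = 0.1 each).

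**Figure D2:**
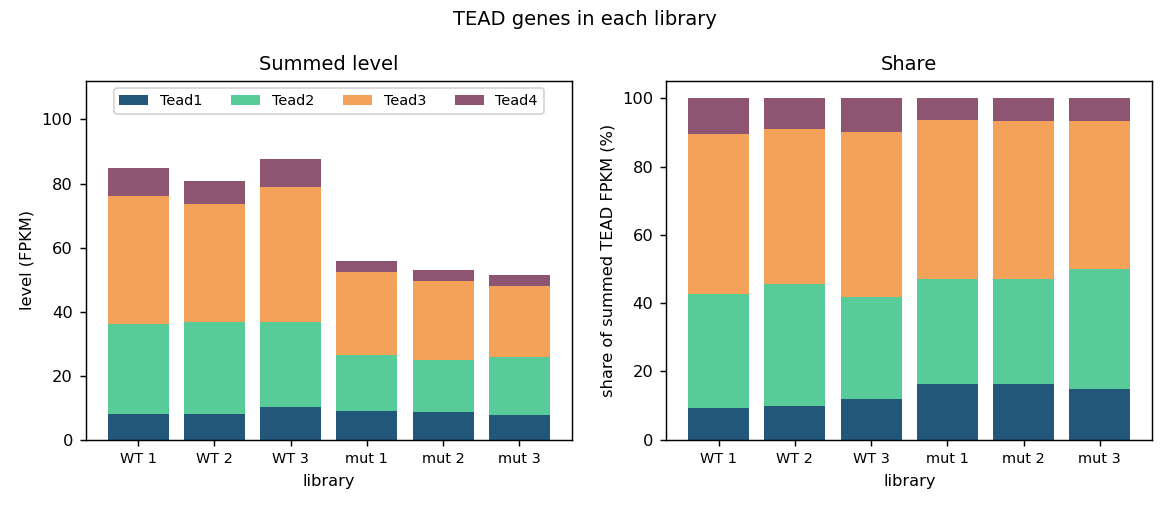
Level in FPKM (left) and share in percent (right) of Tead1, Tead2, Tead3 and Tead4 in each library, stacked, with WT libraries on the left of each panel and mutant libraries on the right. The summed level is about 84.4 FPKM for the WT group and 53.5 FPKM for the mutant group, with a larger share for Tead1 and a smaller one for Tead4 in the latter.

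Among the 5 target genes F3, Ctgf and Cyr61 fell, Amotl2 did not pass, and Ajuba rose. To show the letters that TEAD proteins are known to bind beside these responses, the 250 bases before the RefSeq start (GRCm38.p6) were searched for GGAATG on either strand. The AP-1 sequence TGANTCA was searched too, since AP-1 factors are known to act beside TEAD proteins at many enhancers. RefSeq windows matched 7 of the 10 genes. Ctgf, Tead1 and Tead4 had no window, so those genes were not searched. GGAATG was found for 6 of them, in 8 of 10 windows (Wwtr1 has 2 windows, which overlap and hold the same match, and Tead3 has 3), while 12.6% of all 32851 windows of that length held it. The windows of a fallen target with GGAATG, of a fallen target without it and of the target that rose are shown 5′ to 3′ on the strand of the gene, with GGAATG (or CATTCC, its other strand) and TGANTCA in capitals.
Cyr61: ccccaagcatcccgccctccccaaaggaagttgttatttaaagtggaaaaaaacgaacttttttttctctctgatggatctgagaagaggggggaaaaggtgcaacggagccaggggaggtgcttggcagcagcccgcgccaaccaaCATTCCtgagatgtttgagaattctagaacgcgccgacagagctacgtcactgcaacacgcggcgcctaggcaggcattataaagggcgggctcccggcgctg
F3: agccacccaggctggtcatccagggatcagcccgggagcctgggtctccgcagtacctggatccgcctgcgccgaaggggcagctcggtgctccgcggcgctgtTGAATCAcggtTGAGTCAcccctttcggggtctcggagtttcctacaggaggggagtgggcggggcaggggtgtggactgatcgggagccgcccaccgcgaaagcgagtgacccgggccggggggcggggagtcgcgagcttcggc
Ajuba: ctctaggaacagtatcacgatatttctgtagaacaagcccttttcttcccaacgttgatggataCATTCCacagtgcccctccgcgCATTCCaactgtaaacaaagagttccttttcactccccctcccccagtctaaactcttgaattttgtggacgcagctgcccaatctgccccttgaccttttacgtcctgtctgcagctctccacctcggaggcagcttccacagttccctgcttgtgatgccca
The Cyr61 window (chr3:145649986-145650235, minus strand) held CATTCC starting 103 bases before the start. The Ajuba window (chr14:54577662-54577911, minus strand) held CATTCC at 186 and 164 bases before the start, and 1.02% of all windows held at least 2. The F3 window (chr3:121723287-121723536, plus strand) held no GGAATG, but TGANTCA at 146 and 135 bases before the start. At least 1 TGANTCA was found in 6.75% and at least 2 in 0.338% of all windows. The motifs do not overlap each other in these windows. Amotl2, which did not pass, held CATTCC at 65 bases, Yap1 held GGAATG at 141, and a match is a description of the letters, not a bound site.

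F3 encodes tissue factor, the cell-surface receptor that starts blood clotting. F3 (chromosome 3, 121723537 to 121735052, plus strand) was at 597, 479 and 477 FPKM in the WT and at 102, 113 and 127 FPKM in the mutant libraries. The lowest WT value was several times the highest mutant value. By limma, F3 fell by 2.17 (log2; SE 0.117, adjusted p = 1.07e-05), or 4.55-fold by the means, and ranked as number 49 from the lowest among 11385 fold changes. The deposited interval of each WT library lay above that of each mutant library, in 9 of 9 pairs.

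Ctgf encodes a secreted matrix-associated protein of the CCN family and is among the most used readouts of YAP activity. Ctgf (named Ccn2 in GENCODE; chromosome 10, 24595442 to 24598682, plus strand) was at 228, 187 and 218 FPKM in the WT and at 37.9, 53.6 and 72.0 FPKM in the mutant libraries. The groups lay far apart, although the mutant libraries differed among themselves, with a coefficient of variation of 31.3% beside 10.04% in WT. By limma, Ctgf fell by 1.98 (log2; SE 0.203, adjusted p = 0.000214), or 3.87-fold by the means, and its deposited intervals were apart in 9 of 9 pairs of libraries. An exon of Ctgf overlaps one of Gm15270 on the other strand, so reads of that transcript may be included.

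Cyr61 (Ccn1 in GENCODE; chromosome 3, 145646971 to 145649985, minus strand), a second secreted CCN protein gene, had the highest level of the 10 genes in every library. It was at 2279, 2326 and 2338 FPKM in the WT and at 1139, 1338 and 1613 FPKM in the mutant libraries. The highest mutant value stayed well below the lowest WT value. By limma, Cyr61 fell by 0.78 (log2; SE 0.144, adjusted p = 0.00344), or 1.697-fold by the means. The deposited intervals of Cyr61 were wide, with a lower bound of 0 in the WT libraries, and were apart in 0 of 9 pairs. Under quantile normalization its log2 fold change was -0.081 and the call ended (limma adjusted p = 0.523).

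Within the mutant group, Ctgf, Cyr61 and F3 were each lowest in replicate 1 and highest in replicate 3. In the same 3 libraries, the summed level of the 7 suprabasal markers was 14330, 12580 and 11730 FPKM, most of it from Krt10 and Krt1. These markers did not share an order either. Krt10, Krt1, Dsg1a and Sbsn were highest in replicate 1 and lowest in replicate 3. Krtdap (979.5, 1008 and 1066 FPKM), Lor (20.9, 24.8 and 49.1 FPKM) and Ivl (1.65, 2.18 and 4.23 FPKM) ran the other way. The sum of 14 dermal fibroblast markers was 700.3, 696.3 and 699.4 FPKM, most of it from Postn and Dcn. Markers of this list did not share an order, and those named here were chosen after their values were seen. Fibroblast collagens were highest in replicate 1 and lowest in replicate 3, as were Fbn1, Pdgfra and Pdgfrb. Col1a1 was at 47.1, 29.8 and 20.9 FPKM and Col6a1 at 8.47, 5.08 and 3.55 FPKM. Dcn ran the other way, at 197.2, 213.5 and 233.2 FPKM. Postn was lowest in replicate 1 (308.3, 350.7 and 348.6 FPKM), and Thy1 was highest in replicate 3 (21.27, 16.47 and 25.96 FPKM). The log2 ratio of Cyr61 to Ctgf was 3.45 ± 0.159 in WT and 4.65 ± 0.206 in mutant libraries (SD, n = 3), with no overlap (exact permutation test, two-sided, p = 0.1). The log2 ratio of F3 to Ctgf was 1.29 ± 0.14 and 1.09 ± 0.297, and its groups overlapped (exact permutation test, two-sided, p = 0.4). Over the 7 ratios between members that were tested, groups did not overlap for 6, and the Benjamini-Hochberg adjusted p was 0.117 for these 6. The ratios of Cyr61, F3, Amotl2 and Ajuba share Ctgf, and those of Tead3 and Tead4 share Tead1. They are therefore not separate results, and they restate in part the changes given for each gene. No adjusted p under 0.1 is possible in this design.

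Amotl2 encodes an angiomotin-like scaffold that binds YAP and holds it at junctions, so that its induction is read as feedback. Amotl2 (chromosome 9, 102717804 to 102733417, plus strand) was at 14.6, 16.3 and 18.2 FPKM in the WT and at 14.5, 13.3 and 13.9 FPKM in the mutant libraries. The highest mutant value lay just under the lowest WT value. Its log2 fold change was -0.22 (SE 0.0827, 95% interval -0.41 to -0.03), and it did not pass after adjustment (limma adjusted p = 0.0612). The call was gained in 4 of 19 alternatives, and the sign turned after scaling libraries to the same total FPKM (0.092, limma adjusted p = 0.597).

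Ajuba encodes a LIM-domain protein of adherens junctions that binds and restrains LATS kinases. Ajuba (chromosome 14, 54567469 to 54577661, minus strand) was at 56.5, 60.2 and 71.4 FPKM in the WT and at 77.6, 79.9 and 79.7 FPKM in the mutant libraries. The mutant values were close together and all above the WT values. By limma, Ajuba rose by 0.34 (log2; SE 0.0879, adjusted p = 0.0156), or 1.26-fold by the means. This call was lost without WT replicate 1 (adjusted p = 0.0525), WT replicate 2 (0.0615) or mutant replicate 2 (0.0567). The log2 ratio of Ajuba to Ctgf was -1.74 ± 0.222 in WT and 0.57 ± 0.436 in mutant libraries, and that of Amotl2 to Ctgf was -3.61 ± 0.231 and -1.85 ± 0.49 (SD, n = 3). Both were higher in mutant libraries without overlap (exact permutation test, two-sided, p = 0.1 each).

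**Figure D3:**
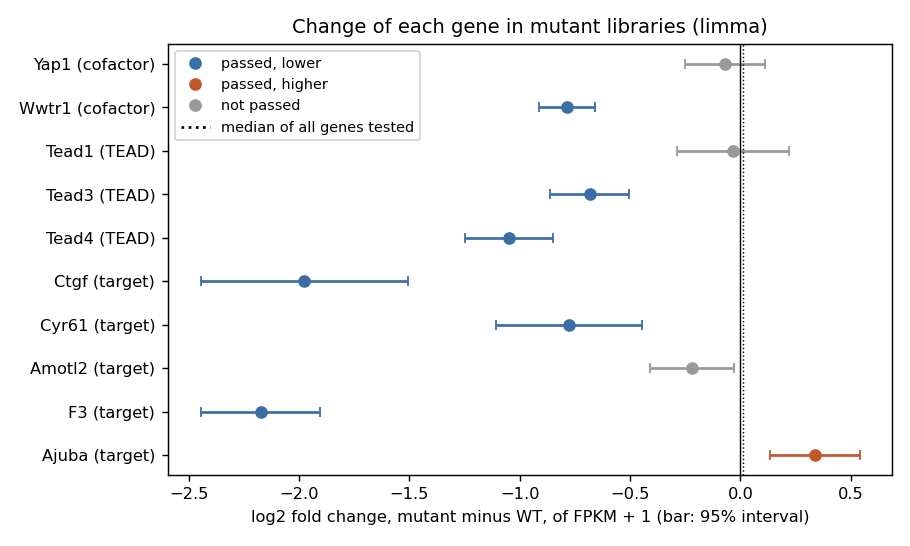
Log2 fold change (mutant minus WT, of FPKM + 1) of each gene with its 95% interval from limma, coloured by call, with the median of all tested genes dotted. F3 (-2.17) and Ctgf (-1.98) lie lowest, Yap1 and Tead1 have intervals that span 0, and Ajuba (0.34) lies above 0.

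Ordered by level per length, WT libraries held Cyr61, F3, Ctgf, Yap1, Ajuba, Wwtr1, Tead3, Amotl2, Tead1 and Tead4, from 2314 FPKM down to 8.26 FPKM. Of the 9 neighbouring pairs in this order, 1 overlapped over the libraries, that of Tead1 and Tead4. In mutant libraries Ctgf stood below Yap1 and Ajuba, and 0 of 9 neighbouring pairs overlapped.

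Summed markers of other cell types also differed between groups, and in bulk samples fewer cells of a type and less RNA per cell cannot be told apart. The 14 dermal fibroblast markers summed to between 784.1 and 945.6 FPKM in WT and between 696.3 and 700.3 FPKM in mutant libraries, led by Postn and Dcn. Of the 12 tested, 5 were lower and 0 higher, where 22.8% and 23.2% of all tested genes were. The median log2 fold change of these 12 was -0.55. The ratio of mutant to WT means lay between 0.459 (Twist2) and 0.992 (Postn) among them, and it was 0.258 for Ctgf, 0.220 for F3 and 0.589 for Cyr61. Twist2 (1.71 and 0.785 FPKM) passed the filter only through the WT group. The 8 endothelial markers summed to at most 4.51 FPKM in any library, and none was tested. The 8 immune markers summed to between 8.74 and 10.9 FPKM in WT and between 7.38 and 8.07 FPKM in mutant libraries, with Cd207 at 0 throughout. The 8 melanocyte markers summed to between 16.8 and 23.1 and between 12.3 and 16.4 FPKM, and the 8 skeletal muscle markers to between 17.7 and 30.2 and between 11.5 and 13.1 FPKM. The 6 mural markers summed to between 12.8 and 14.9 and between 18.6 and 27.4 FPKM. Of these, Notch3 was higher (6.68 and 17.3 FPKM), while 3 of the 6, Cspg4, Des and Kcnj8, had every mutant value under every WT value. Among all tested genes 26.9% were apart in that direction. Cspg4 did not pass (limma adjusted p = 0.107), and Des and Kcnj8 were under the filter and not tested. The 8 erythroid markers, whose globin copies share reads, summed to between 230.6 and 313.1 and between 90.3 and 156.7 FPKM. The part of these cell types, and of suprabasal cells, in the changes of the 10 genes was not tested.

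Of 12 tested genes of the Hippo kinase module, 4 were higher and 2 lower, with a median log2 fold change of 0.08. These counts are near the shares over all tested genes (23.2% higher and 22.8% lower). With libraries scaled to the same total FPKM, 7 were higher and 1 lower, where 47.2% and 7.4% of all tested genes were. Stk4, which encodes MST1, rose from 8.57 ± 0.457 to 12.2 ± 0.309 FPKM (SD, n = 3; limma adjusted p = 0.000739), and its partner Sav1 (log2 fold change 0.37), the LATS activator Mob1b (0.57) and the kinase gene Mink1 (0.53) rose as well. Lats2, a LATS kinase gene that is also a known YAP target and counted among the targets too, fell from 9.88 ± 1.08 to 5.23 ± 0.601 FPKM (SD, n = 3; limma adjusted p = 0.000493). Stk3, which encodes MST2 and was chosen after its values were seen, fell by 0.32 on the log2 scale. Mob1a (0.10) and Map4k4 (0.06) did not pass.

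Of 17 tested upstream regulators and inhibitors of YAP and TAZ, 9 were lower and 1, Nf2, was higher, with a median of -0.21, where 22.8% of all tested genes were lower and 23.2% higher. With libraries scaled to the same total FPKM, 1 was lower and 1 higher, where 7.4% and 47.2% of all tested genes were. With small RNAs left out of the total, 2 were lower and 4 higher, where 7.95% and 57.7% of all tested genes were. Rassf1, a scaffold that binds MST kinases, fell from 107.5 ± 7.21 to 58.3 ± 1.71 FPKM (SD, n = 3; limma adjusted p = 4.89e-05). Mpp5, a polarity scaffold (log2 fold change -0.61), Amotl1, the angiomotin relative of Amotl2 (-0.46), Wtip (-0.37) and Frmd6 (-0.33) fell too, whereas Csnk1d (-0.17) and Csnk1e (-0.10) did not pass. Nf2, which encodes the tumour suppressor Merlin and was chosen after its values were seen, rose by 0.39 on the log2 scale. In the first of these scalings Mpp5, Amotl1, Wtip and Frmd6 lost the call, at log2 fold changes of -0.307, -0.136, -0.059 and -0.003.

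Among other partner factors, 3 of 7 tested were lower, Tead2, Vgll3 and Vgll4, and 1, the coactivator gene Ncoa3 (0.45), was higher, with a median of -0.10, where 22.8% of all tested genes were lower and 23.2% higher. An equal FPKM total left 2 lower and 2 higher, where 7.4% and 47.2% of all tested genes were. Vgll3, which encodes a TEAD-binding cofactor, fell from 12.0 ± 0.706 to 5.53 ± 0.71 FPKM (SD, n = 3; limma adjusted p = 0.000109). Vgll4, which encodes a TEAD-binding repressor of YAP, fell by 0.32 on the log2 scale, a direction that turned to 0.005 after scaling libraries to the same total FPKM. Wbp2 (-0.10) and Runx1 (0.18) did not pass.

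Of 25 tested other genes known as YAP and TEAD targets, 14 were lower and 5 higher, with a median of -0.44, where 22.8% of all tested genes were lower and 23.2% higher. With libraries scaled to the same total FPKM, 11 were lower and 8 higher, where 7.4% and 47.2% of all tested genes were. Ccdc80, a matrix protein gene, fell from 28.1 ± 2.04 to 8.03 ± 0.93 FPKM (SD, n = 3). Inhba, an activin subunit gene (log2 fold change -1.73), and the stress-response gene Gadd45b (-1.57) also fell. Inhba (4.56 and 0.675 FPKM) and Nt5e (2.19 and 0.862 FPKM), both counted as lower, had mutant means under 1 FPKM. They passed the filter only through the WT group, where they were higher. The 5 higher genes were Igfbp3, which rose from 21.4 ± 0.764 to 36.5 ± 0.12 FPKM (SD, n = 3), and, chosen after their values were seen, Tgfb2 (0.87), Dusp1 (0.58), Arhgef17 (0.38) and Nuak2 (0.34). Myof (-0.14) and Birc5 (0.06) did not pass.

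Close relatives of the target genes were compared with them. Of 6 relatives of Ajuba in its LIM family, 5 were lower and 0 higher (limma; at an unadjusted p under 0.05 also 0 higher), with a median of -0.54, where 22.8% of all tested genes were lower. An equal FPKM total left 3 lower, where 7.4% of all tested genes were. Zyxin (Zyx), a focal adhesion protein, fell from 128 ± 9.55 to 47.8 ± 3.54 FPKM and Fblim1 fell from 30.2 ± 3.12 to 9.06 ± 0.502 FPKM (SD, n = 3), Trip6 (-0.70) and Wtip (-0.37, also counted upstream) fell as well, and Lpp (0.06) did not pass. Limd1 (-0.17) was called lower but lost the call in 12 of 19 alternatives, and turned to 0.158 after scaling libraries to the same total FPKM. Of the other CCN genes, Nov alone reached a mean of 1 FPKM and fell from 1.96 ± 0.656 to 0.627 ± 0.0181 FPKM (SD, n = 3). Its mutant mean lay under 1 FPKM, so Nov passed the filter only through the WT group, where it was higher.

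Of 3 tested genes that act with tissue factor, 2 were lower and 1 was higher, where 22.8% and 23.2% of all tested genes were. With libraries scaled to the same total FPKM, 1 was lower and 1 higher, where 7.4% and 47.2% were. Without the filter on low values, 3 of 7 were lower and 1 higher, where 14.1% and 13.8% were. F2rl1, the receptor cleaved by tissue factor with factor VIIa, fell from 94.3 ± 5.28 to 37.0 ± 2.03 FPKM (SD, n = 3; limma adjusted p = 9.58e-06), and the thrombin receptor gene F2r fell by 0.46 on the log2 scale, a call lost after scaling libraries to the same total FPKM (-0.147). F7, which encodes the tissue factor ligand, was listed at 0 in every library, and the inhibitor gene Tfpi was under the filter. Thbd, the anticoagulant receptor thrombomodulin, rose from 0.655 ± 0.145 to 1.63 ± 0.451 FPKM (SD, n = 3; limma adjusted p = 0.00788). Its WT mean lay under 1 FPKM, so Thbd passed the filter only through the mutant group, where it was higher.

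**Figure D4:**
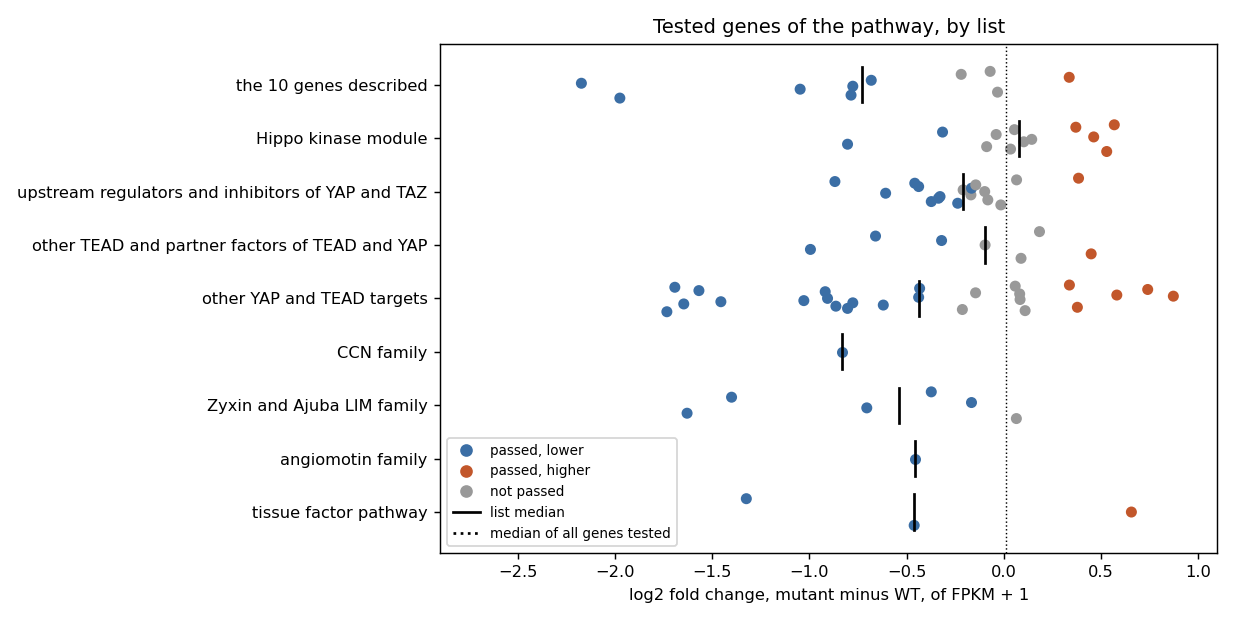
Log2 fold change (mutant minus WT, of FPKM + 1) of each tested gene, by list, coloured by call, with the list median as a black bar and the median of all tested genes dotted; vertical scatter within a list only separates points. The Hippo kinase genes lie on both sides of 0. As deposited, 14 of 25 other targets and 5 of 6 relatives of Ajuba were lower (22.8% of all tested genes were). With libraries scaled to the same total FPKM, 11 and 3 were lower (7.4% of all tested genes were).

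Likeness over the 6 libraries was described by Pearson's r of log2(FPKM + 1) with 8528 genes whose mean reached 5 FPKM in either group. The genes most like Ctgf were Prss23 (r = 0.998), Mtmr14 (0.997), Tnfsf15 (0.997), Trim16 (0.997) and Dusp5 (0.997). Among the 10 genes, Cyr61 (0.99), F3 (0.982), Wwtr1 (0.973) and Tead4 (0.959) were also close to Ctgf, and Ajuba was opposite (-0.81). The genes most like Yap1 were Atrnl1 (0.998), Smad5 (0.973), Cbfa2t2 (0.973), Uevld (0.971) and Taf1a (0.962), and r between Yap1 and Ctgf was 0.302. The 6 points are 2 groups of 3 libraries, and 46.0% of tested genes differed between these groups.

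Directions hold for values as deposited. Giving every library an equal FPKM total moved the median log2 fold change over all genes from 0.01 to 0.303, and all values shifted with it. In that scaling 5 of the 10 genes were lower (7.4% of tested genes were) and Ajuba was higher (47.2% were). Relative to the median gene, Yap1 was at -0.05 with that scaling and at -0.08 as deposited, and Tead1 was at -0.04 in both.

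**Figure D5:**
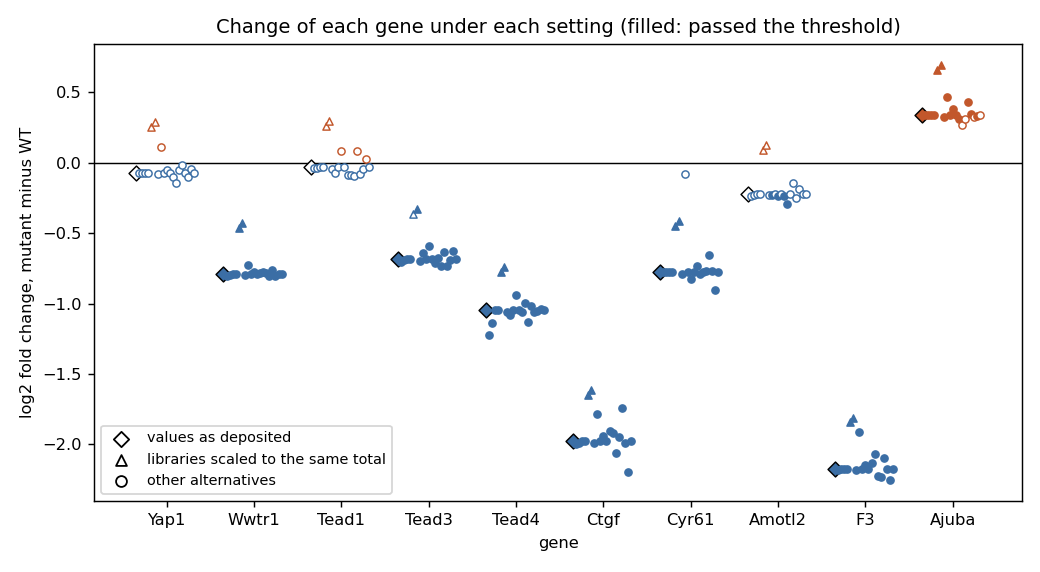
Log2 fold change of each gene (vertical axis) as deposited (diamonds), with libraries scaled to the same total, with or without small RNAs (triangles), and under the other alternatives (circles), filled where the threshold was passed. Wwtr1, Tead4, Ctgf and F3 are filled and below 0 under every setting shown, and Yap1 and Tead1 are open under every setting shown.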

How the data were processed

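RNA of 6 libraries, 3 WT and 3 mutant, was analysed from a single deposited table. The authors deposited FPKM values per gene and library with the bounds of an interval, per the file headers; TopHat and Cufflinks are named, per the submitters' processing notes. Their versions were not given in the sources used here. Those notes name mm9, but 98.9% of 23315 symbols overlapped the gene of that name in GENCODE M21 (GRCm38), so positions, with 1 added to each start, are read as GRCm38. Read depth is unknown.

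limma 3.58.1 in R 4.3.3 (empirical Bayes with a trend) was run on log2(FPKM + 1) for 11385 genes whose mean reached 1 FPKM, adjusted by Benjamini-Hochberg with calls under 0.05, and was tested on simulated data. A fold change on this scale understates that of low genes; "fold by the means" is the ratio of mean FPKM. Ratios within a library were compared with exact permutation tests (scipy 1.17.1). Python 3.11.15 made tables and figures. Members and lists were chosen with earlier results of these data known. Named genes are the 10 members, up to 5 genes per list that passed, by smallest p, up to 2 that did not, by level, the 2 highest markers per cell type, and the 5 genes most like Ctgf and Yap1. Alternatives covered the pseudocount, filter, scaling, variance prior, library weights, replicate number, Xist, single libraries and threshold. Flg and Hbb-bt were not analysed here. A gene that the naming rule picks among the other targets is not reported here.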

Additional observations from a re-analysis of the deposited data

How the results depend on the processing

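Under 19 alternatives to the limma fit, Wwtr1, Tead4, Ctgf and F3 were called lower in all 19, Cyr61 lost the call under quantile normalization and Tead3 once libraries had equal FPKM totals. Read depth, which would set the counting error, is unknown. With libraries scaled to the same total, 5375 genes were higher and 842 lower, with small RNAs left out of that total 6567 and 905, and at a threshold of 0.01 1554 and 1634. The pathway lists together (12 higher and 32 lower of 67 tested) held 19 higher and 19 lower in the first of these scalings and 22 and 21 in the second. As deposited, 23.2% of all tested genes were higher and 22.8% lower. These shares were 47.2% and 7.4% in the first scaling and 57.7% and 7.95% in the second. Ajuba, the member called higher, lost the call at a threshold of 0.01 (0 members higher), and without 1 library the members called higher ranged from 0 to 1.

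Signs turned as follows, mostly for genes that had not passed. With the same total and with small RNAs left out, in that order, log2 fold changes were 0.258 and 0.291 for Yap1, 0.265 and 0.295 for Tead1, 0.092 and 0.124 for Amotl2, 0.157 and 0.191 for Csnk1d, 0.226 and 0.259 for Csnk1e, 0.005 and 0.038 for Vgll4, 0.227 and 0.26 for Wbp2, 0.167 and 0.199 for Myof, and 0.158 and 0.192 for Limd1. Frmd6 was at 0.03 with small RNAs left out. Yap1 was at 0.112 under quantile normalization. With library weights Tead1 was at 0.085 and Birc5 at -0.103. Without 1 library, Tead1 ranged from -0.093 to 0.085, Birc5 from -0.067 to 0.125 and Lpp from -0.041 to 0.181. The cause was not tested.

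Without Tead2 in the sum, Tead1 held 15.4% in WT and 23.4% in mutant libraries, Tead3 70% and 67.1%, and Tead4 14.6% and 9.58%, since the sum is smaller. The ratios between members kept their sign with every pseudocount and every library left out.

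Deviations of same-numbered libraries from their group means correlated at 0.127, 0.122 and -0.00735 across genes. Between libraries with different numbers, r lay between -0.157 and 0.0619, and mutant replicate 3 correlated best with WT replicate 2 (0.0315). These values do not settle whether the replicate numbers pair the libraries. With the replicate number as a block, 1889 genes were higher and 1909 lower, and 6 members were lower and 1 higher.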
